A study of Mus musculus with 6 samples.

Results

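Collagens, laminins and the proteins that bind them form the extracellular matrix of the islet. Members were all genes whose platform symbol is a numbered collagen chain (Col, number, a, number) or a numbered laminin chain (Lama, Lamb or Lamc), with Nid1, Nid2, Fn1, Hspg2, Sparc, Dcn, Lum, Mgp and Emid1 added. Genes with more than 1 probe set were read from the brightest, judged by the mean of 6 arrays. The rule found 61 genes among the 18193 that had a probe set named for them alone. The arrays measured RNA from islets of 3 mice labelled as knockout and 3 control littermates, all 8 weeks old on a mixed SV 129/C57BL/6 background. Mice labelled knockout were Pdx1Cre;PPARbetafl/fl: both copies of Ppard, the gene of the fatty acid receptor PPAR-beta, were floxed, and Cre came from a Pdx1 promoter transgene that acts across the developing pancreas. Control littermates were PPARbetafl/fl and carried the same floxed alleles without Cre. No array came from a Cre-positive mouse with intact Ppard, so Cre and the deletion cannot be told apart as the origin of a difference. Islets were isolated by collagenase digestion and a Histopaque gradient. The labels name beta-cells, but such preparations are whole islets with vessels and adhering tissue.

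A basement membrane is a sheet in which laminin trimers and a network of type IV collagen are joined by nidogens and perlecan. Islet beta cells make little basement membrane of their own in the mouse and lie against the one laid down by islet capillaries, which signals to them through integrins. Fibrillar collagens belong to the interstitial matrix and are made mainly by fibroblasts, stellate cells and the cells around vessels, so in whole islets these transcripts come from a minority of cells.

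The 6 arrays had median log2 values between 5.39 and 5.49. Ppard itself, on its brighter probe set, read 8.01, 8.20 and 7.70 in the arrays labelled knockout, with 7.75, 7.56 and 7.12 in controls, a difference of 0.49 ± 0.20 (SE, adjusted p = 0.377). Its other probe set read 5.97, 5.84 and 5.73 in the arrays labelled knockout and 5.57, 5.47 and 5.47 in controls (0.35 ± 0.11, adjusted p = 0.255). Both differences were positive, so the expression values do not show the deletion. The labels do not say which exon was removed, and a probe set outside it would not report the loss. Islet markers were present throughout: the mean log2 level of 14 beta cell markers was 11.38, 11.50 and 11.54 in the arrays labelled knockout, with 11.80, 11.51 and 11.62 in controls. Acinar markers varied most, with a mean over 22 genes of 8.74, 5.74 and 5.89 in the arrays labelled knockout, set beside 6.88, 11.03 and 11.23 in controls, highest in controls 2 and 3. Endothelial markers averaged 7.33, 7.49 and 7.41 in the arrays labelled knockout and 7.52, 6.82 and 7.13 in controls over 18 genes. Markers of fibroblasts, stellate and mural cells averaged 5.80, 5.63 and 6.03 against 5.86, 5.49 and 5.77, also over 18 genes. All values below are log2 expression values per probe set. Differences are arrays labelled knockout minus control with their SE from limma, and a gene counted as changed at an adjusted p under 0.05, with p adjusted over all 45037 probe sets. Probe sets differ in how well they hybridise, so no level is compared between genes.

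Emid1 was the only one of the 61 genes that changed, and their median difference was near 0. Among all features measured, 404 probe sets (0.897%) and 200 genes (1.10%) passed in either direction. Of the 61 genes, 0 rose (0.852% of all 18193 genes did), 1 fell (0.247% of all genes did) and 60 did not pass. Their median difference was -0.04, beside 0.00 over all genes, and 24 had higher and 37 lower means. At an unadjusted p under 0.05 there were 4 higher and 7 lower members, where 8.37% and 5.58% of all genes stood, so 18.0% of the members and 14.0% of all genes were under that value. The groups did not overlap in 6 genes higher and 8 lower, where 12.1% and 9.06% of all genes did not. These 14 genes are 23.0% of the members, against 21.2% of all genes. A difference of at least 1.5-fold in either direction was seen in 9 members, or 14.8%, where 6.68% of all genes had one. For 50 of the 61 genes the 95% interval of the difference in signal lay within 1 log2 unit of 0 on both sides. Doubling or halving of the signal lies outside these intervals, and for the other 11 genes the interval reached further. Some of the 50 were dim probe sets, such as that of Col24a1 (mean 2.14, interval -0.35 to 0.14), and signal over background was not examined. For these a narrow interval does not bound the change in transcript. In whole islets fewer cells of a type and less RNA per cell cannot be told apart.

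**Figure D1:**
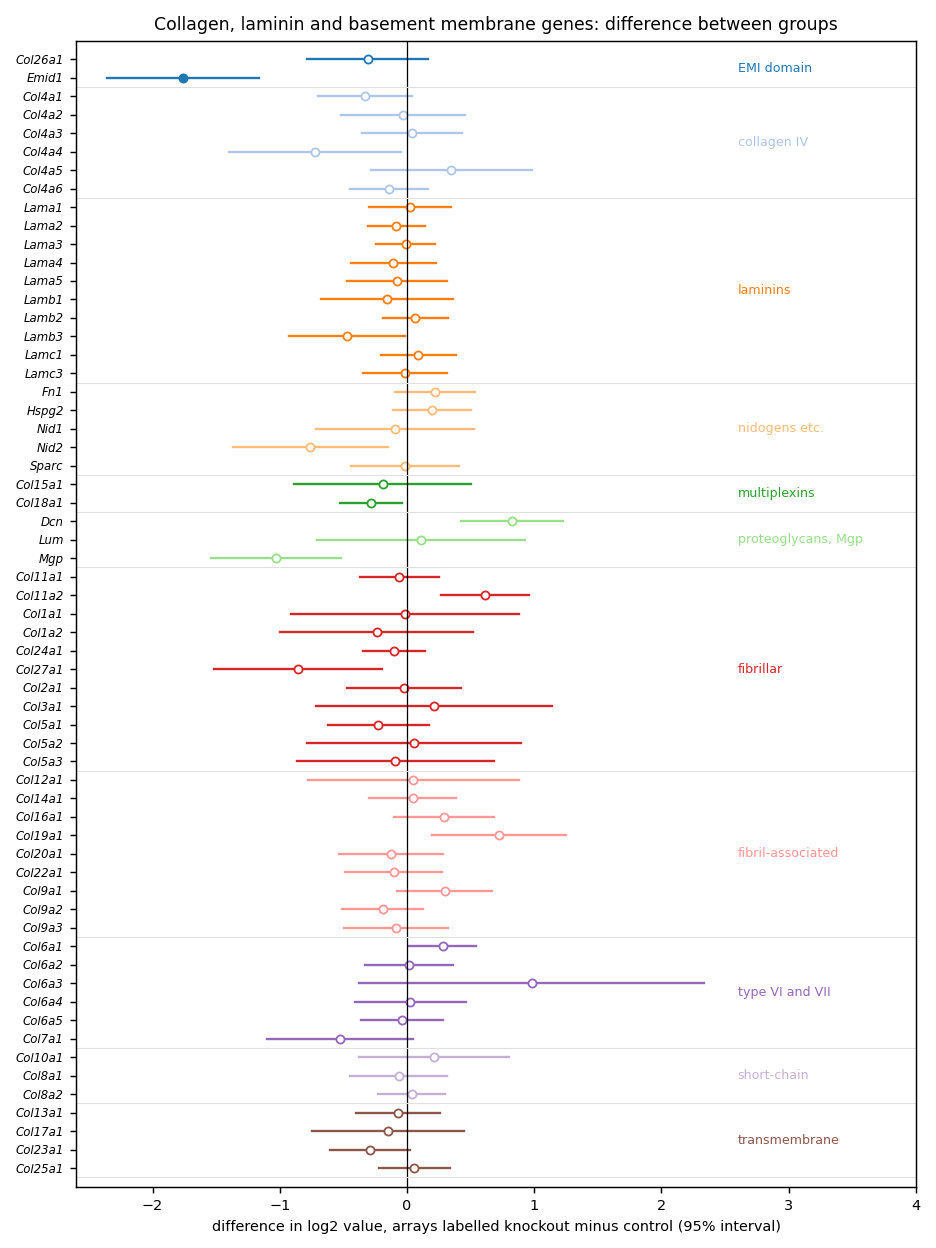
Difference in log2 value between arrays labelled knockout and control for the 61 genes, ordered by class, with 95% intervals on the x axis. The filled point is the 1 gene past adjusted p 0.05, Emid1 at -1.76; open points did not pass.

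Emid1 was the member that fell. It encodes a secreted protein with a cysteine-rich EMI domain and a short collagen-like stretch, first described in mouse embryonic tissues. Its log2 values were 7.49, 7.29 and 7.68 in the arrays labelled knockout and 9.78, 8.80 and 9.16 in controls. Every array labelled knockout lay below every control. The means of 7.48 ± 0.19 and 9.25 ± 0.50 (SD, n = 3 each) differed by -1.76 ± 0.25, a 3.39-fold lower level (adjusted p = 0.0329). Control 1, with the lowest acinar mean of the controls (6.88), had the highest Emid1 value. Against control 1 alone, assumed to vary like the arrays labelled knockout, the difference was -2.30 (adjusted p = 0.0516). With the acinar mean as a covariate it was -2.12 ± 0.27 (adjusted p = 0.0584). The call was lost when control 3 or any of the arrays labelled knockout was left out (adjusted p between 0.0937 and 0.142, differences between -1.66 and -1.86). Alpha and delta cell markers were also lower in the same arrays. All 9 measured were lower without overlap, as were 9.06% of all genes. The mean of these markers was 10.17, 10.16 and 10.14 in the arrays labelled knockout against 10.81, 10.69 and 10.69 in controls. Their part in the Emid1 result was not tested. Col26a1, the closest relative of Emid1 with the same EMI domain, had 3.86, 4.32 and 3.57 in the arrays labelled knockout and 4.21, 4.09 and 4.38 in controls. These groups overlapped, and the difference was -0.31 ± 0.20 (adjusted p = 0.575).

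The promoter of Emid1 is shown because it belongs to the only member that changed. It covers 250 bases before to 50 bases after the gene's start in RefSeq, build GRCm38.p6, chr11:5152181-5152480, minus strand, read 5′ to 3′ in the direction of the gene. Capitals mark the motifs searched on both strands, which were the GC box GGGCGG, the CCAAT box CCAAT, the TATA core TATAAA, the nuclear receptor half-site AGGTCA and its direct repeat AGGTCANAGGTCA, the arrangement that PPAR and RXR dimers are known to bind.
Emid1: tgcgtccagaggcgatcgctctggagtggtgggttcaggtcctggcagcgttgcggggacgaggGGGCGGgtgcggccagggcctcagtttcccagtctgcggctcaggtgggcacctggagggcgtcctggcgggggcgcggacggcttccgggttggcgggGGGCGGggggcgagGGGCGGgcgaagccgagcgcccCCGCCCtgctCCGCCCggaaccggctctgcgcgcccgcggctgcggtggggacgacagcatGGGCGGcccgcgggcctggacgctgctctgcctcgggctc
The window holds 6 GC boxes and 0 matches of the other 4 motifs, and 77.3% of its bases are G or C, against a median of 52.7% over 32851 promoter windows of the same length. A second RefSeq window of the gene, chr11:5150025-5150324 on the same strand, holds 0 matches of the 5 motifs. The GC box occurs in 35.7% of those windows, the half-site in 16.3%, and the direct repeat in 0.0396% (13 windows). RefSeq windows were found for 42 of the 61 genes, 47 windows in all, of which 59.6% hold a GC box, 17.0% the half-site and 0 the direct repeat. Absence from a window says only that these letters are not in it.

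**Figure D2:**
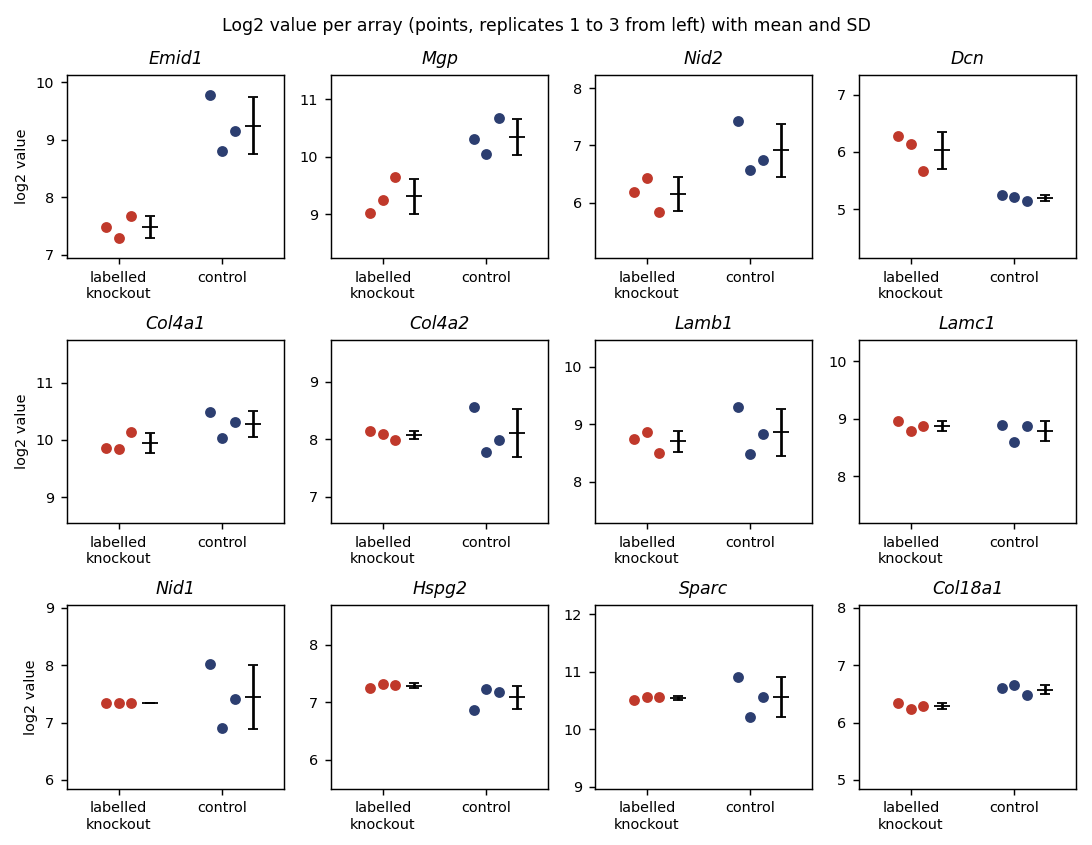
Log2 value (y axis) of 12 genes in each array labelled knockout (left, red) and control (right, blue), with mean and SD beside the points; every panel spans the same number of log2 units. Emid1 and Mgp lie lower and Dcn higher in the arrays labelled knockout, of which only Emid1 passed. In Nid1 and Sparc the arrays labelled knockout lie together between the spread controls on the brightest probe set, which for Nid1 was not so on the second.

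No chain of type IV collagen, the network of every basement membrane, passed: of 6 genes 0 rose, 0 fell and 6 did not pass, with differences between -0.73 and 0.35. The α1 and α2 chains assemble together into the common form of the network. Col4a1 stood at 9.86, 9.84 and 10.14 in the arrays labelled knockout and at 10.50, 10.04 and 10.31 in controls. Knockout 3 lay above control 2, and the difference was -0.33 ± 0.16 (95% interval -0.70 to 0.04, adjusted p = 0.435), with -0.06 on a second probe set. Col4a2 had 8.14, 8.10 and 7.99 in the arrays labelled knockout, inside the control range of 7.78 to 8.57, and differed by -0.03 ± 0.21 (95% interval -0.52 to 0.45). In both genes control 1 was the highest of the 6 arrays and control 2 the lowest control. Against control 1 alone they differed by -0.55 and -0.49 (adjusted p = 0.343 and 0.305). The α3 to α6 chains, which form the networks of specialised membranes such as those of the kidney and lung, did not pass either. Col4a4 had 4.63, 4.17 and 3.82 in the arrays labelled knockout and 4.39, 5.19 and 5.21 in controls, an overlap through control 1, with a difference of -0.73 ± 0.29 (adjusted p = 0.354). Col4a3, Col4a5 and Col4a6 differed by 0.04 ± 0.17, 0.35 ± 0.27 and -0.14 ± 0.13, none past the threshold.

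Col4a1 and Col4a2 are neighbours transcribed in opposite directions from 1 shared promoter region. Their windows are shown because the chains are made as a pair and the controls stood in the same order in both. Both are from RefSeq, GRCm38.p6, each read 5′ to 3′ along its own gene, with capitals for the same motifs: Col4a1 at chr8:11312777-11313076 on the minus strand and Col4a2 at chr8:11312555-11312854 on the plus strand.
Col4a1: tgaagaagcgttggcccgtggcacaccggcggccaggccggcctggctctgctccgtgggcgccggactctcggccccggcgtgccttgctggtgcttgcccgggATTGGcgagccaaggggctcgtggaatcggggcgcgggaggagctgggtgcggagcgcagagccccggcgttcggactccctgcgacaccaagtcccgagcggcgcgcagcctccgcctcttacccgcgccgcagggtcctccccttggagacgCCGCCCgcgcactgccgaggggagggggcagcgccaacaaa
Col4a2: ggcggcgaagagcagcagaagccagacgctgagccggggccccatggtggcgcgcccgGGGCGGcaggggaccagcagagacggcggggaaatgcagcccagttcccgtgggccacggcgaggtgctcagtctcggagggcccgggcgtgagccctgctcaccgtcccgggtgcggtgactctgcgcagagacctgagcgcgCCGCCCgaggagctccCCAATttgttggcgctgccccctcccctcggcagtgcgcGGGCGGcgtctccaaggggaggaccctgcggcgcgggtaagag
The windows overlap by 78 bases, and the annotated starts lie 21 bases apart on opposite strands. The Col4a1 window holds 1 GC box and 1 CCAAT box and the Col4a2 window 3 GC boxes and 1 CCAAT box, where the CCAAT box occurs in 37.4% of all windows. Neither holds the TATA core or a nuclear receptor motif. In 8 cases both genes of a neighbouring pair of protein-coding genes are members, among them Col3a1 with Col5a2, Col6a1 with Col6a2 and Dcn with Lum.

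Laminins are cross-shaped trimers of an α, a β and a γ chain that start the assembly of a basement membrane. Of 10 chains measured, 0 rose, 0 fell and 10 did not pass, and their median difference was -0.05. The α4 and α5 chains are those of endothelial basement membranes. Lama4 had 6.87, 6.95 and 7.07 in the arrays labelled knockout and 7.31, 6.88 and 7.01 in controls, and Lama5 had 6.49, 5.94 and 6.31 against 6.18, 6.46 and 6.32. In both genes the groups overlapped, with differences of -0.11 ± 0.14 and -0.08 ± 0.17. The β1 and γ1 chains are common to most laminins. Lamb1 stood at 8.75, 8.86 and 8.50 in the arrays labelled knockout, inside the controls' 9.29, 8.48 and 8.82 (difference -0.16 ± 0.22, 95% interval -0.68 to 0.36). Lamc1 had 8.97, 8.79 and 8.88 in the arrays labelled knockout and 8.90, 8.59 and 8.88 in controls (0.09 ± 0.13, 95% interval -0.21 to 0.39). The β2 chain gene Lamb2 differed by 0.07 ± 0.11, and the α chains Lama1 and Lama3 by 0.02 ± 0.14 and -0.01 ± 0.10. Lama2, the muscle and nerve α2 chain, had groups that did not overlap and lay close together (-0.08 ± 0.10, adjusted p = 0.775). The widest difference among laminins was that of Lamb3, a chain of the epithelial laminin that anchors hemidesmosomes. It had 4.68, 4.61 and 4.34 in the arrays labelled knockout and 4.75, 4.90 and 5.41 in controls, without overlap, and differed by -0.47 ± 0.19 (adjusted p = 0.375), or by -0.28 without control 3. Lamc3 differed by -0.01 ± 0.14.

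None of the linkers and matrix-binding genes passed, and Nid2 had the widest difference among them. Nidogens tie laminin to type IV collagen. Nid1 had 7.34 in each of the 3 arrays labelled knockout, against 8.01, 6.90 and 7.41 in controls, so the controls spread to both sides (difference -0.10 ± 0.26, adjusted p = 0.919). The values of those 3 arrays were identical at 7.3444, and the reason was not examined. A second Nid1 probe set had 7.33, 7.17 and 7.07 in the arrays labelled knockout and 7.62, 7.10 and 7.44 in controls (-0.20 ± 0.16). There knockout 3 was the lowest array. Nid2 had 6.19, 6.43 and 5.84 in the arrays labelled knockout and 7.43, 6.57 and 6.74 in controls. The groups did not overlap, and the difference of -0.76 ± 0.26 did not pass (adjusted p = 0.288); it was -0.50 without control 1 and -1.28 against control 1 alone. Hspg2, the gene of the heparan sulfate proteoglycan perlecan, had 7.24, 7.32 and 7.30 in the arrays labelled knockout and 6.86, 7.24 and 7.17 in controls, close together without overlap (0.20 ± 0.13, adjusted p = 0.577). Sparc encodes a collagen-binding protein that endothelial and stromal cells make in quantity. Its 3 arrays labelled knockout read 10.51, 10.57 and 10.57, between control 2 at 10.22 and control 1 at 10.91, with control 3 at 10.56. Sparc differed by -0.01 ± 0.18 (95% interval -0.44 to 0.41), and its second probe set by 0.04. Fibronectin, an adhesive glycoprotein of interstitial matrix and plasma, had 5.65, 5.36 and 5.61 for Fn1 in the arrays labelled knockout and 5.49, 5.21 and 5.26 in controls (0.22 ± 0.13, adjusted p = 0.547).

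The multiplexins carry an endostatin-like end and sit in vessel basement membranes. Col18a1, the source of endostatin, had 6.35, 6.24 and 6.29 in the arrays labelled knockout and 6.60, 6.65 and 6.48 in controls. The groups did not overlap, and the difference of -0.28 ± 0.10 did not pass (adjusted p = 0.324); a second probe set differed by -0.13 and overlapped. Col15a1 had 6.95, 6.81 and 7.21 in the arrays labelled knockout, inside the controls' 7.40, 6.51 and 7.64 (-0.19 ± 0.29, adjusted p = 0.840).

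After Emid1 the smallest p-values belonged to Dcn and Mgp, which had differences of opposite sign that did not pass. Dcn encodes decorin, a small leucine-rich proteoglycan that binds collagen fibrils and TGF-beta. It had 6.29, 6.13 and 5.67 in the arrays labelled knockout and 5.25, 5.21 and 5.15 in controls. The controls lay close together and below all arrays labelled knockout, a difference of 0.82 ± 0.17 (adjusted p = 0.0972). Without knockout 3, the lowest of its group, the gene passed (adjusted p = 0.0472). A second, dimmer probe set (mean 3.31 beside 5.62) differed by 0.07. Mgp encodes matrix Gla protein, a vitamin K-dependent inhibitor of calcification made by vascular smooth muscle and endothelium. It had 9.02, 9.25 and 9.64 in the arrays labelled knockout and 10.31, 10.04 and 10.67 in controls. The groups did not overlap, and the 2.04-fold lower mean (-1.03 ± 0.22) did not pass (adjusted p = 0.103) except with limma-trend and robust eBayes together (adjusted p = 0.0364). Lum, the gene of the related proteoglycan lumican and a genomic neighbour of Dcn, had 3.48, 3.15 and 4.09 against 4.12, 3.00 and 3.27, an overlap (0.11 ± 0.34).

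No fibrillar collagen passed. Of 11 genes 0 rose, 0 fell and 11 did not pass. Col1a1 and Col1a2 encode the chains of type I collagen, the main fibril of stroma. Col1a1 had 6.48, 5.96 and 6.45 in the arrays labelled knockout and 7.10, 5.54 and 6.31 in controls, and Col1a2 had 6.03, 5.86 and 6.28 against 6.97, 5.63 and 6.28. The arrays labelled knockout thus lay between control 2 and control 1 in both genes, with differences of -0.02 ± 0.38 (95% interval -0.91 to 0.88) and -0.24 ± 0.32. Second probe sets did not keep this order. For Col1a1 knockout 3 (6.21) lay above control 1 (6.15). For Col1a2 the arrays labelled knockout (3.59, 3.28 and 3.10) all lay below control 2 (3.68), with a difference of -0.61 ± 0.37 (adjusted p = 0.549). Col3a1, the type III chain of vessel walls and loose stroma, had 6.79, 6.44 and 6.14 in the arrays labelled knockout and 6.95, 5.37 and 6.42 in controls (0.21 ± 0.39). The 95% interval of Col1a1 gives the differences that 3 arrays a group leave possible. It is not the smallest change that could have passed, which was not worked out. The smallest p-values of the class were those of Col11a2 and Col27a1. Col11a2, a cartilage fibril chain, had 4.41, 4.06 and 4.40 in the arrays labelled knockout and 3.61, 3.85 and 3.57 in controls (0.61 ± 0.15, adjusted p = 0.141). Col27a1, a fibrillar chain of cartilage, had 4.94, 4.94 and 4.55 in the arrays labelled knockout and 6.30, 5.41 and 5.28 in controls. Its difference of -0.86 ± 0.28 did not pass (adjusted p = 0.270); it was -0.54 without control 1 and -1.49 against control 1 alone. Its second probe set differed by -1.45 ± 0.33, also short of the threshold (adjusted p = 0.122). In both probe sets of Col27a1 the groups did not overlap.

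The remaining collagens fell into families that decorate fibrils, form beaded filaments or span the membrane, and none of their 22 genes passed. Among 9 fibril-associated chains the differences ran between -0.19 and 0.72. The highest was that of Col19a1, which had 6.00, 5.41 and 5.34 in the arrays labelled knockout and 5.03, 4.53 and 5.01 in controls, without overlap (0.72 ± 0.22, adjusted p = 0.244). Its other probe sets differed by 0.70 and 0.34. Col9a1, its neighbour and a type IX chain of cartilage fibrils, overlapped (0.30 ± 0.16, adjusted p = 0.493). Col16a1 had 5.52, 5.47 and 5.53 in the arrays labelled knockout and 5.33, 5.45 and 4.87 in controls, close but without overlap (0.29 ± 0.17, adjusted p = 0.522). Type VI collagen forms beaded filaments around cells. Col6a1 had 3.25, 3.32 and 3.32 in the arrays labelled knockout and 2.93, 2.95 and 3.17 in controls, a narrow gap (0.28 ± 0.11, adjusted p = 0.356), and its neighbour Col6a2 differed by 0.01 ± 0.15. Col6a3 was the most variable member: it had 4.53, 4.78 and 6.18 in the arrays labelled knockout and 5.22, 3.93 and 3.41 in controls. Its mean difference of 0.98 ± 0.57 did not pass (adjusted p = 0.535) and moved with single arrays: it was 0.47 without knockout 3, 0.59 without control 3, 1.496 without control 1 and -0.05 against control 1 alone. Across the 4 transmembrane collagens the differences lay between -0.29 and 0.06, and across the 3 short-chain network collagens between -0.07 and 0.21.

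**Figure D3:**
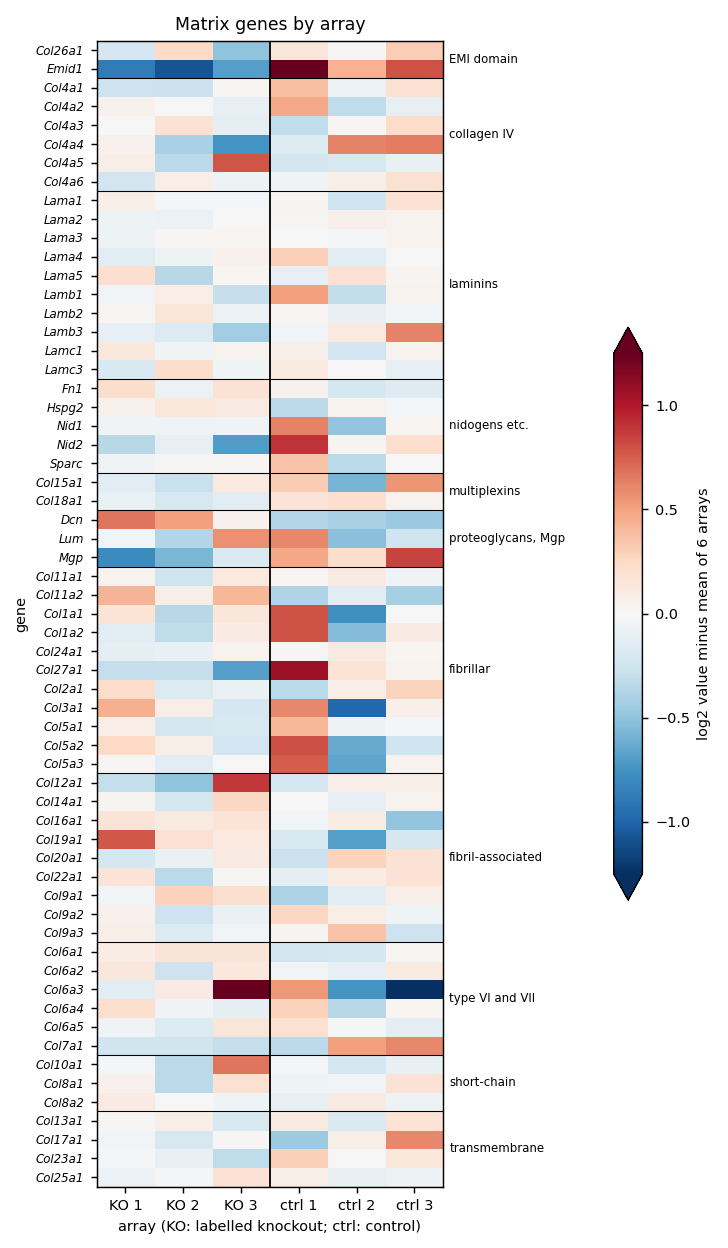
Log2 value of each of the 61 genes in each array minus the gene's mean over the 6 arrays, as colour from blue (lower) to red (higher), capped at the ends of the bar; arrays labelled knockout are the left 3 columns. Emid1 is blue in all arrays labelled knockout, and in 5 of the 11 fibrillar collagens control 1 is the highest and control 2 the lowest array.

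The matrix genes spread widely across the 6 arrays. The range over the 6 arrays exceeded 1 log2 unit in 21 of 61 members (34.4%), against 12.5% of all genes. That range includes any difference between the groups. Within groups the members' median SD was 0.17 in the arrays labelled knockout and 0.22 in controls, against 0.14 and 0.16 over all genes. A pattern noticed after the values were seen was that control 1 was high and control 2 low. Control 1 was the highest and control 2 the lowest of the 6 arrays in 11 members (18.0%, against 5.76% of all genes): the fibrillar Col1a1, Col1a2, Col3a1, Col5a2 and Col5a3, the basement membrane genes Col4a2, Lamb1 and Nid1, and Sparc, Lum and Col6a4. On second probe sets Col5a2, Lamb1 and Sparc kept that order, and Col1a1, Col1a2, Col3a1, Col5a3, Nid1 and Col6a4 did not. Several of these second probe sets were dim, so their order says little. Mean values were 2.02 for Col3a1, 2.91 for Col5a3, 3.06 for Col6a4, 3.63 for Col1a2 and 2.99 for Col5a2. In Col5a2, the type V chain that helps nucleate fibrils and the neighbour of Col3a1, the values were 5.82, 5.64 and 5.32 in the arrays labelled knockout and 6.37, 4.93 and 5.31 in controls. In 20 members all arrays labelled knockout lay inside the control range (32.8%, against 19.9% of all genes). Cell markers that are not members were read for the same order. Endothelial markers were lowest in control 2 for 15 of 18 genes and highest in control 1 for 9, where 22.5% and 23.3% of all genes were. The fibroblast, stellate and mural list was lowest in control 2 for 7 of 18 genes and highest in control 1 for only 3, a smaller share than among all genes. None of these markers passed the test between groups. The smallest p-values were those of the endothelial Icam2 (0.61 ± 0.17, adjusted p = 0.205) and Ptprb (0.72 ± 0.22, adjusted p = 0.235) and of the stromal Meox1 (0.41 ± 0.12, adjusted p = 0.222) and Pdpn (1.03 ± 0.32, adjusted p = 0.249). Of the endothelial genes 15 of 18 had higher means (median difference 0.28), where 9165 of all 18193 genes had. The fibroblast, stellate and mural list split into 9 higher and 9 lower means (median 0.01), so the 2 named do not stand for it. Whether these cells account for the order of the controls was not tested.

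Controls 2 and 3, the arrays with the highest acinar marker levels, were the 2 highest arrays in 6 members: Col7a1, Col17a1, Lamb3, Col4a4, Col20a1 and Lama2. That is 9.84% of the members, close to the 8.48% of all genes, so it is no result about the members as a group. It is given for single genes because their differences depend on which controls are used. Col7a1 encodes type VII collagen of anchoring fibrils and Col17a1 a collagen of hemidesmosomes. Col7a1 had 4.28, 4.28 and 4.23 in the arrays labelled knockout and 4.21, 5.04 and 5.13 in controls, so control 1 stood with the arrays labelled knockout and controls 2 and 3 apart. Col17a1 had 3.35, 3.19 and 3.40 in the arrays labelled knockout and 2.94, 3.46 and 3.99 in controls. Their differences, with Lamb3 and Col4a4 as above, were -0.53 ± 0.24 for Col7a1 and -0.15 ± 0.25 for Col17a1, and neither passed (adjusted p = 0.425 and 0.859). Without control 1, which leaves controls 2 and 3, Col7a1 differed by -0.82 and passed (adjusted p = 0.0277). Against control 1 alone Col7a1 differed by 0.06, Lamb3 by -0.20, Col4a4 by -0.19 and Col17a1 by 0.38, none past the threshold. Duct markers were also higher in controls 2 and 3 than in control 1, with means of 9.45, 9.45 and 9.33 in the arrays labelled knockout and 9.07, 9.86 and 9.73 in controls over 11 genes. Of the duct list 1 gene rose (Cftr, 3.92 ± 0.21, adjusted p = 0.000937) and the next was Prom1 (-1.07 ± 0.18, adjusted p = 0.0597). The duct mean includes Cftr, which raises it in the arrays labelled knockout. Of the 11 duct genes 8 had lower means, and the median difference was -0.19. Of the acinar list 0 of 22 passed, led by Cela1 (-4.18 ± 1.49, adjusted p = 0.314) and Bhlha15 (0.65 ± 0.24, adjusted p = 0.334). Means were lower for 20 of these genes and higher for 2, of which Bhlha15 is 1. Their median difference was -3.34, and 9028 of all 18193 genes had lower means.

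The remaining cell lists were read in the same way. Immune markers averaged 5.97, 5.89 and 6.18 in the arrays labelled knockout and 5.70, 5.68 and 5.70 in controls. Of 18 genes 14 had higher means, 9 had an unadjusted p under 0.05, and 7 were higher without overlap. Over all 18193 genes 9165 had higher means, 14.0% had an unadjusted p under 0.05 and 12.1% were higher without overlap. In this list 1 gene rose, Laptm5 (1.34 ± 0.11, adjusted p = 0.00425), followed by Tyrobp (0.65 ± 0.13, adjusted p = 0.102). Of 8 Schwann cell markers 0 passed, led by S100b (-0.36 ± 0.11) and Foxd3 (0.19 ± 0.11). Of 14 beta cell markers 1 fell, Slc30a8 (-0.82 ± 0.12, adjusted p = 0.0394), followed by Pcsk1 (0.54 ± 0.13, adjusted p = 0.152). Of 9 alpha and delta cell markers 2 fell, Ghsr (-1.17 ± 0.12, adjusted p = 0.00970) and Rbp4 (-0.73 ± 0.10, adjusted p = 0.0265). Their part in the matrix results was not tested.

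**Figure D4:**
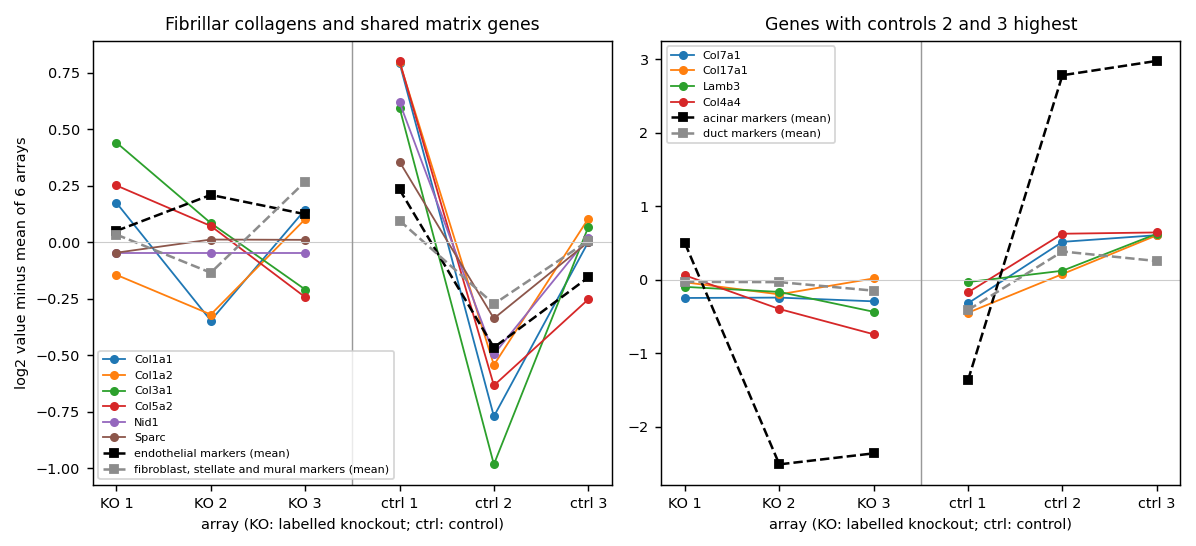
Log2 value minus the mean of the 6 arrays (y axis, a separate scale in each panel) in the arrays labelled knockout (left of the line) and controls (right), with lines joining the arrays of 1 gene or marker list. Left, 6 matrix genes with the endothelial and fibroblast marker means, all lowest in control 2. Right, 4 genes with the acinar and duct marker means, higher in controls 2 and 3 than in control 1. The genes on the left are from the 11 with control 1 highest and control 2 lowest. Those on the right are from the 6 with controls 2 and 3 the 2 highest. Their order in the controls was thus fixed by the choice of genes.

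The other genes of matrix biology came from lists chosen with earlier results of these data known. Of 26 integrins and other matrix receptors 1 rose, 0 fell and 25 did not pass, with a median difference of -0.02. Itga6, the integrin α6 subunit that receives laminin on beta cells and hemidesmosomes, had 10.17, 10.28 and 9.94 in the arrays labelled knockout and 9.30, 9.42 and 9.17 in controls. The groups did not overlap, and Itga6 rose by 0.83 ± 0.13, or 1.78-fold (adjusted p = 0.0481), with 0.88 ± 0.15 on its second probe set (adjusted p = 0.0588). The difference lay between 0.76 and 0.93 with any 1 array left out, when it no longer passed (adjusted p between 0.0643 and 0.195), and it was 0.83 against control 1 alone (adjusted p = 0.212). Itgb8, an integrin subunit that activates latent TGF-beta, had the next smallest p in that list and differed by -1.09 ± 0.23 (adjusted p = 0.108).

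Of 39 other basement membrane and matrix genes 1 rose, 0 fell and 38 did not pass. That gene was Matn2, a matrilin that bridges matrix filaments, which had 10.24, 10.55 and 10.54 in the arrays labelled knockout and 7.67, 6.97 and 7.30 in controls (3.13 ± 0.19, adjusted p = 0.00149). It kept its call in all 14 alternatives run. Spock1, a secreted proteoglycan of the Sparc family, differed by -1.81 ± 0.34 without passing (adjusted p = 0.0756). Of 23 genes of hydroxylation, folding, cleavage and crosslinking 0 passed, with a median difference of 0.06. The smallest p-values there were those of the lysyl hydroxylase gene Plod3 (0.45 ± 0.11, adjusted p = 0.146) and the prolyl hydroxylase subunit and disulfide isomerase gene P4hb (0.37 ± 0.10, adjusted p = 0.194). Of 26 matrix proteases and inhibitors 0 passed, although 20 had higher means (median 0.14), where 9165 of all 18193 genes had. The aggrecanase gene Adamts4 differed by 0.78 ± 0.17 (adjusted p = 0.119) and the urokinase gene Plau by 1.41 ± 0.39 (adjusted p = 0.200). Of 16 genes of TGF-beta signalling, a main inducer of matrix genes, 0 passed, and the smallest p belonged to the TGF-beta-induced adhesion protein gene Tgfbi (0.56 ± 0.11, adjusted p = 0.0885), followed by the latent TGF-beta binding protein gene Ltbp2 (-0.65 ± 0.17, adjusted p = 0.188).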

How the data were processed

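RNA of islets was measured on 6 1-colour Affymetrix arrays, 3 labelled knockout and 3 control, grouped by GEO's labels. The authors deposited log2 values, 1 per probe set and array; RMA (background correction, quantile normalization and probe summary) is named without a version per the submitters' processing notes. Scanner files were not used here, so neither detection nor scan date was examined, and the number of arrays limits the precision. Control probe sets (64) were left out, which left 45037, of which 34945 had a single symbol in GEO's platform annotation. All 61 members matched the RefSeq gene table (GRCm38.p6) by gene identifier; 38 had several probe sets. A single fit across all probe sets was made with limma 3.58.1 in R 4.3.3 (lmFit, eBayes, group as the only term, two-sided, Benjamini-Hochberg adjustment), after a test on simulated data. Fold changes are powers of 2 of these differences. Named members were those past the threshold, the 6 smallest p in each direction, all Col4a, laminin and nidogen genes and 15 fixed matrix genes; Col7a1, Col17a1, Col26a1, Col5a2, Col5a3, Col6a4 and Col20a1 were named after their values were seen. From each other pathway list, the genes past the threshold and, otherwise, the 2 with the smallest p were named; Itgb8 and Spock1, next after a gene that passed, were named after their values were seen. Members and lists were chosen with earlier results of these data known. Alternatives were the replicate block, each array left out, median centring, quantile normalization again, a floor at the median level, limma-trend with robust eBayes, the mean of all probe sets, the acinar mean as a covariate, and controls 2 and 3 left out. The design text gives 3 animals in each group.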

Additional observations from a re-analysis of the deposited data

How the results depend on the processing

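Emid1 had a negative difference in all 14 alternatives, from -1.49 to -2.30. Members called lower numbered 2 without control 1 (Emid1 and Col7a1) and with robust limma-trend, which changes the trend and the robust option together (Emid1 and Mgp), and 0 with the acinar covariate, with controls 2 and 3 left out, and in 4 of the 6 fits without 1 array (range 0 to 2); members called higher ranged from 0 to 1 in those fits, the 1 being Dcn without knockout 3. Probe sets called over the whole table, 404 as reported, numbered 246 with the replicate block, 903 with robust limma-trend, 130 with the acinar covariate, 54 with controls 2 and 3 left out, and 152 to 783 without 1 array. Genes called, 200 as reported, numbered 123, 496, 62 and 33 in the same 4 settings, 315 with the floor, and 77 to 335 without 1 array. The labels give same-numbered arrays only a shared number. Their deviations correlated at -0.054, 0.141 and 0.0045, of which 0.141 was the largest among all pairs of a knockout and a control array. With so few arrays these values cannot show whether same-numbered arrays share a batch. With the replicate block Emid1 was still called (adjusted p = 0.0456) and Itga6 was not (adjusted p = 0.0724). Itga6 passed in 5 of 14 alternatives. Of 61 members, 15 changed sign with controls 2 and 3 left out, 14 without control 1, 12 with the acinar covariate, 9 with the mean of all probe sets, 7 after centring (which moves all genes alike) and 4 after quantile normalization; 14 of 38 second probe sets had the opposite sign. Alternatives for Itga6 and Matn2 were chosen after seeing the data. With 3 arrays a group, intervals of the fibrillar collagens limit what can be said of them, and signal over background was not examined. The probe sets of 36 of the 61 members had a mean level below the median of all probe sets, as did those of 7111 of 18193 genes.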

Other observations

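Proteins outside the collagen family also carry collagen triple helices, among them the collectins, the complement C1q chains and the C1q-like hormones. Of 33 such genes measured, a list chosen with results of these data known and from which genes were named after their values were seen, 1 rose, 0 fell and 32 did not pass, with a median difference of 0.03. The gene that rose was Sftpd, the surfactant collectin SP-D, at 10.52, 10.80 and 10.75 in the arrays labelled knockout and 6.52, 6.44 and 5.98 in controls (4.38 ± 0.17, adjusted p = 0.000425). The complement genes C1qa, C1qb and C1qc, whose proteins assemble into 1 complex and are made by macrophages, differed by -0.21 ± 0.30, 0.81 ± 0.29 and 1.42 ± 0.33, none past the threshold. Emilin1, which shares the EMI domain with Emid1 and sits on elastic fibres, had 8.47, 8.89 and 8.16 in the arrays labelled knockout and 7.69, 7.29 and 6.94 in controls. That is the opposite sign to Emid1, at 1.201 ± 0.25 (adjusted p = 0.1004), without passing. Emilin2 differed by 0.61 ± 0.16 (adjusted p = 0.190), and the fat-cell hormone gene Adipoq by 0.00 ± 0.15.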
